A study of Mus musculus with 2 samples.

Results

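In mouse gene annotation, a symbol made of Gm and a number is a placeholder for a predicted gene that had not yet been given a functional name. The deposited count files listed 1236 symbols of this form. Of these, 131 had 50 or more reads in at least 1 of the 2 libraries and are described here as the Gm genes (10.6% of the Gm symbols, and 1.25% of the 10469 genes of any name past the same floor). They were chosen by name and by raw reads in these libraries, so that the presence of a Gm gene in the set is not a finding. A further 352 Gm symbols had between 1 and 49 reads at most, and 753 had no read in either library.

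The study compared mouse bone marrow-derived dendritic cells given UNE-C1 with a control culture, with 1 library in each group. UNE-C1 is known outside the labels as a domain of cysteinyl-tRNA synthetase that acts on Toll-like receptors. Marrow for both groups was from 7-week-old female mice of the C57BL/6 strain and was grown in 20 ng/ml GM-CSF, a growth factor that drives marrow cells towards dendritic and other myeloid cells, with new GM-CSF on day 3 and collection of the immature cells, non-adherent or loosely attached, on day 6. The UNE-C1 group received 100 nM for 24 h, and what was given to the control culture, and whether animals were pooled, is not stated in the labels. For each library, 500 ng of total RNA entered a QuantSeq protocol, in which reads start close to the 3′ end of a messenger RNA, so that the number of reads does not scale with transcript length and read-based levels can be set side by side between genes.

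There were 14857198 reads in the control library and 15975821 with UNE-C1. Reads were scaled to library size as CPM (each library's total brought to the same size, with TMM factors), and the floor of 50 reads was 2.99 CPM for the control and 3.52 CPM for UNE-C1. Because each group is 1 library, no replicate error and no test exist, and every difference below compares these libraries and not the conditions. A gene was counted as higher or lower when it differed at least 2-fold on the log2(CPM + 1) scale, which understates the change of genes with few reads (1 CPM is the pseudocount). A stated fold is the plain CPM ratio with an exact (Clopper-Pearson, conditional binomial) 95% interval, which covers counting error only, since no molecular identifiers are named. In bulk cultures, fewer cells of a type and less RNA per cell cannot be told apart. Of 8 dendritic cell markers, 7 passed the floor, their summed level was 6775 CPM without and 6241 CPM with UNE-C1, the integrin gene Itgax was lower (12693 and 3493 reads), and Cd209a was at 0 in both.

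Predicted genes are a mixed group. Some are protein-coding members of gene families that expanded in the mouse, such as the interferon-inducible GTPases, which coat and disrupt the membranes around intracellular pathogens. Others are long non-coding RNAs, often transcribed beside or antisense to a coding gene. Many are pseudogenes, copies of a gene that usually lost its coding function. A processed pseudogene arises when a messenger RNA is copied back into the genome, so that its sequence can match that of the parent messenger RNA almost letter for letter and a short read cannot always be placed on one or the other.

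That likeness can bear on the read counts of several of the most abundant Gm genes, and the following stretches show the likeness. They were taken from the GENCODE M21 transcripts (build GRCm38) and lie in the part of the Gm transcript that aligned to its parent. For Ubb, Ass1 and Apol7c the stretch was limited to the coding part of the named transcript. QuantSeq reads start close to the 3′ end of a transcript, so the stretches do not show where the reads fell. Bases 596 to 685 of the Gm1821 transcript, a ubiquitin pseudogene, were the same as bases 1257 to 1346 of the ubiquitin transcript Ubb, with 0 of 90 bases differing. Bases 1150 to 1239 of Gm5424 likewise equalled bases 1352 to 1441 of Ass1, the gene of argininosuccinate synthase. The last 90 aligned bases of Gm17757 (bases 3504 to 3593, named Gm18852 in RefSeq) equalled those of Gm18853. For Gm8221 and its relative Apol7c, an apolipoprotein L gene, 4 of the 90 bases differed, and these are in capitals.
Gm1821: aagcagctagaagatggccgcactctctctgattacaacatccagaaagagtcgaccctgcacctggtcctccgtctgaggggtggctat
Gm5424: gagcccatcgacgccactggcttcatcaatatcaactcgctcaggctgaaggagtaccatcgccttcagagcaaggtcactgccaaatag
Gm17757: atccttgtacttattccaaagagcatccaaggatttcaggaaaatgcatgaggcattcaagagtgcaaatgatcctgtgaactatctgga
Gm8221: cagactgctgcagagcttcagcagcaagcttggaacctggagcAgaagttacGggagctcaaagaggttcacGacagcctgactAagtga
Apol7c: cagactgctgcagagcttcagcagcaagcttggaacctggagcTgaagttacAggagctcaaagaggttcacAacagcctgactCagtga

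Of the 131 Gm genes, 27 had at least 2-fold higher levels with UNE-C1 (20.6%), where 9.31% of all genes past the floor were higher. There were 13 that were at least 2-fold lower (9.92%), where 9.42% of all genes were lower, and 91 were neither. The median log2 fold change was -0.04 over the Gm genes and -0.00 over all genes, and single values ran from -2.09 for Gm10336 to 4.28 for Gm4951. The share of lower Gm genes was close to that of all genes. The split depended on the scaling: with plain total counts, which shifted the median of all genes to -0.33 and of the Gm genes to -0.35, 21 Gm genes were higher (all genes 6.28%) and 24 lower (all genes 16.2%). With a pseudocount of 5 CPM, 18 were higher (all genes 6.92%) and 5 lower (all genes 4.62%). With no floor, 6.42% of 483 Gm symbols with a read were higher, beside 6.82% of all genes. The floor favours a difference in genes that passed it in only 1 library. Gm genes past it only in the UNE-C1 library numbered 15, among them 11 of the 27 higher genes. Those past it only in the control numbered 19, among them 5 of the 13 lower genes. Among the 97 Gm genes past the floor in both libraries, 16 were higher (16.5%, against 8.32% of 9355 genes) and 8 were lower (8.25%, against 6.08%).

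**Figure D1:**
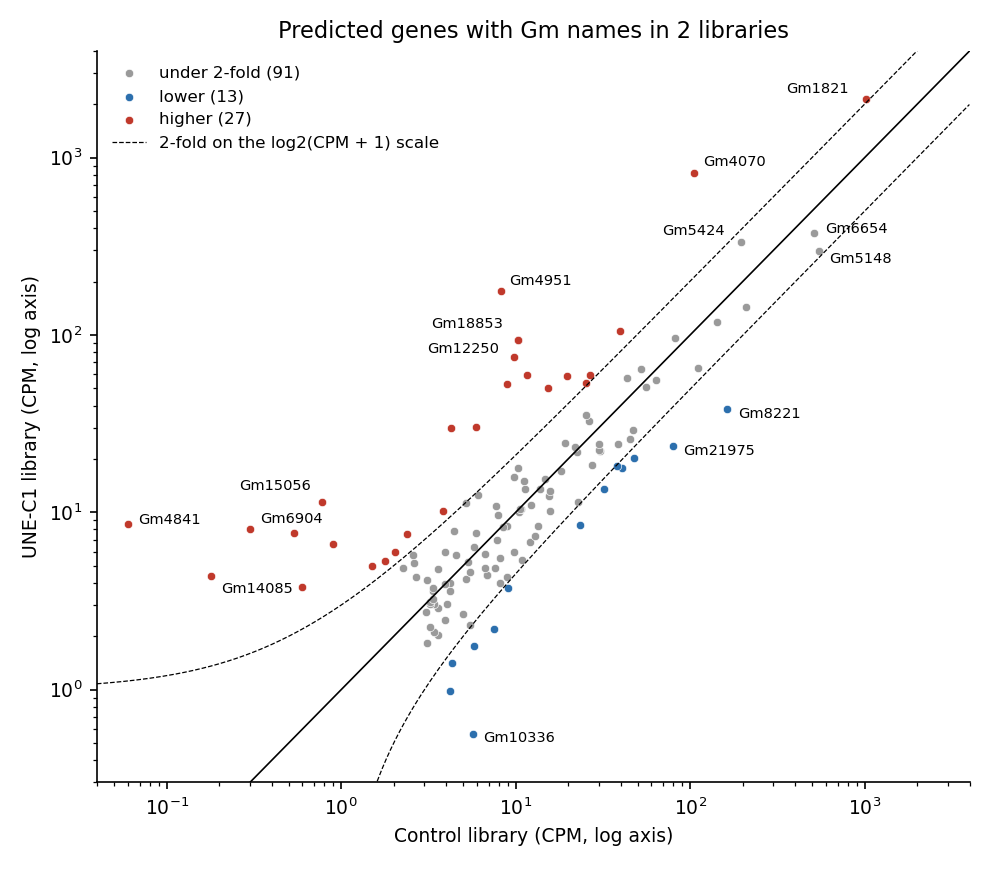
Each of the 131 Gm genes is a point, with its level in the control library (CPM, log axis) across and in the UNE-C1 library (CPM, log axis) upwards; the solid line marks equal levels and the dashed curves a 2-fold difference on the log2(CPM + 1) scale. The 27 higher genes lie above the upper curve, with Gm4951 and Gm4841 farthest from it, and the 13 lower genes lie below the lower curve, with Gm10336 farthest.

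The reads on Gm genes were few and were held by a handful of symbols. Together they took 78211 control reads (0.526% of the library, 95% Wilson score interval of the share 0.523% to 0.530%). With UNE-C1 they took 93099 reads (0.583%, 0.579% to 0.586%). Gm1821 alone held 21.6% of these reads without and 32.6% with UNE-C1. Without it the share of raw reads was 0.413% without and 0.393% with UNE-C1, so that the order of these raw shares turned with this 1 symbol. On the TMM scale the order did not turn. Without Gm1821 there were 61286 control reads and 62795 with UNE-C1, for TMM library sizes of 16733330 and 14184620. All 131 Gm genes together had 4674 CPM in the control and 6563 CPM with UNE-C1. The 10 most abundant Gm genes held 66.0% and 70.2% of the reads, and 8 of them were the same in both libraries.

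By annotated class, 42 Gm genes were long non-coding, 47 protein-coding and 41 pseudogenes, and Gm17066 was not matched to a class. There were 10 higher and 6 lower protein-coding Gm genes, and 7 of the 10 belonged to the GTPase families described next. The shares among coding Gm genes were 21.3% higher and 12.8% lower, beside 8.95% and 9.41% of the 10066 coding genes with other names. Of the long non-coding Gm genes, 9 were higher (21.4%) and 3 were lower (7.14%), beside 18.1% and 8.79% of 182 other long non-coding genes. Of the pseudogenes, 8 were higher (19.5%) and 4 were lower (9.76%), beside 17.0% and 14.9% of 47 other pseudogenes. These shares include genes that passed the floor in only 1 library, among them the higher coding genes Gm4841, Gm12185, Gm14085 and Gm15056.

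The immunity-related GTPases (IRG) are interferon-inducible proteins that attack the vacuoles of intracellular parasites and bacteria. The 5 coding Gm genes of this family past the floor were all at least 2-fold higher with UNE-C1, at log2 fold changes from 1.64 to 4.28. All 6 named relatives were higher too, from 2.44 for Irgm2 to 7.40 for Iigp1. Over all genes past the floor, 9.31% were higher. These GTPase genes were listed with earlier results of these data in view, so their number is a description. With a pseudocount of 5 CPM, Gm12185 had a log2 fold change of 0.98 and was no longer called. Markers of macrophages and monocytes, cells of the same cultures, differed in both directions: of 5 past the floor, 3 were higher (Fcgr1 with 553 and 5629 reads, Ly6c2 with 5545 and 15692, Adgre1 with 1945 and 4940) and Mrc1 was lower (1291 and 80). Their summed level over all 6 was 2895 CPM without and 3326 CPM with UNE-C1, none was at 0, and their part in the GTPase results was not tested.

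Gm4951, listed in RefSeq also as Ifgga2 and placed on chromosome 18, had 137 control reads and 2515 reads with UNE-C1. Its level was 21.7-fold higher (18.2 to 25.9), the largest log2 difference among the Gm genes. Its neighbour Gm4841, also known as Ifgga3, had 1 and 122 reads, a ratio of 143.9 with a counting interval from 25.4 to 5731. Both were higher, but their levels with UNE-C1 were far apart, at 177 CPM for Gm4951 and 8.60 CPM for Gm4841. F830016B08Rik, a counted gene next to them, had 13 and 172 reads. The Gm4951 transcript matched that of Iigp1 at 86.5% of 1280 aligned bases, and Iigp1 had 19 and 5094 reads.

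Gm12250 encodes Irgb10, an IRG protein known for its part in breaking open bacteria for inflammasome sensing, and lies at chr11:58183843-58190198 (GRCm38, the build named mm10 in the submitters' notes). It had 164 and 1059 reads and was 7.62-fold higher (6.46 to 9.04). The next IRG gene on that chromosome past the floor, Igtp, had 194 and 2575 reads, and the unrelated ribosomal protein gene Mrpl22, which lies closer, had 217 and 204.

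Gm12185 (Irgb2b1, chr11:48904656-48927182) and Gm5431 (Irgb9b8, chr11:48887422-48902152) lie side by side on the minus strand, and their transcripts matched at 93.0% of 2658 aligned bases. Gm12185 had 15 and 94 reads, a 7.39-fold difference (4.26 to 13.7). Gm5431 had 257 and 709 reads, a 3.25-fold difference (2.82 to 3.77). The intervals did not overlap, so the neighbours differed in fold beyond counting error. The transcript most like that of Gm5431 was 9930111J21Rik1, at 95.7% of 2961 bases. It had 34 and 57 reads and a log2 fold change of 0.73, short of the threshold. The similarly named gene 9930111J21Rik2 had 40 and 96 reads and was past the threshold, at 1.20.

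The very large interferon-inducible GTPases, or GVIN proteins, are another interferon-induced family, encoded by long genes in a cluster on chromosome 7. The 5 Gm genes listed for this family and found in the files were all at least 2-fold higher. Gm18853 had been listed with the IRG genes but lies inside the span of Gvin1, and it is described with this cluster. With it, 6 of 6 Gm genes of the cluster were higher, with log2 fold changes from 1.12 to 3.06, where 9.31% of all genes past the floor were higher. Several of the 6 have near-identical transcripts, as given below, so they cannot be taken as 6 independent measurements. With total counts Gm1966 fell short of the threshold, at 0.79. Gvin1 itself had 860 and 5650 reads, a 7.75-fold difference (7.21 to 8.34).

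Gm4070 (chr7:105895118-105953967) was the second most abundant Gm gene in the UNE-C1 library, with 1770 control reads and 11651 reads with UNE-C1. It was 7.77-fold higher (7.39 to 8.17), within counting error of Gvin1. The Gm4070 and Gvin1 transcripts matched at 99.97% of 9005 aligned bases, with 3 mismatches, and Gm4070 held 67.3% of the reads of the pair in each library. At that likeness, how the counting divided reads between them cannot be told apart from their own levels.

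Gm17757 (Gm18852 in RefSeq, chr7:105924344-105928691) had 173 and 1326 reads, and Gm18853 (chr7:106185743-106190099) had 173 and 1327. These pseudogenes differed at 1 of 3592 aligned bases, lie inside Gm4070 and Gvin1 respectively, and were 9.04-fold and 9.05-fold higher. With 1 base to tell them apart, as the Gm17757 stretch above illustrates, their near-equal reads cannot be taken as 2 independent measurements. Gm8979 had 99 and 432 reads and Gm8989 had 195 and 842, which are 5.15-fold (4.13 to 6.47) and 5.09-fold (4.35 to 5.98) differences in transcripts that matched at 98.9%. Their like folds cannot be taken as independent either.

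Gm1966 (chr7:106595549-106644646), at the far end of the same cluster, had 447 and 841 reads. It was 2.22-fold higher (1.98 to 2.49), which lies below the intervals of the other 5 Gm genes of the cluster. Its transcript matched Gvin1 at 92.9% of 7297 bases, the lowest likeness to Gvin1 among the Gm genes of the cluster with an alignment over that length. Gm4070 and Gvin1 thus had like ratios, and Gm1966 a smaller one.

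**Figure D2:**
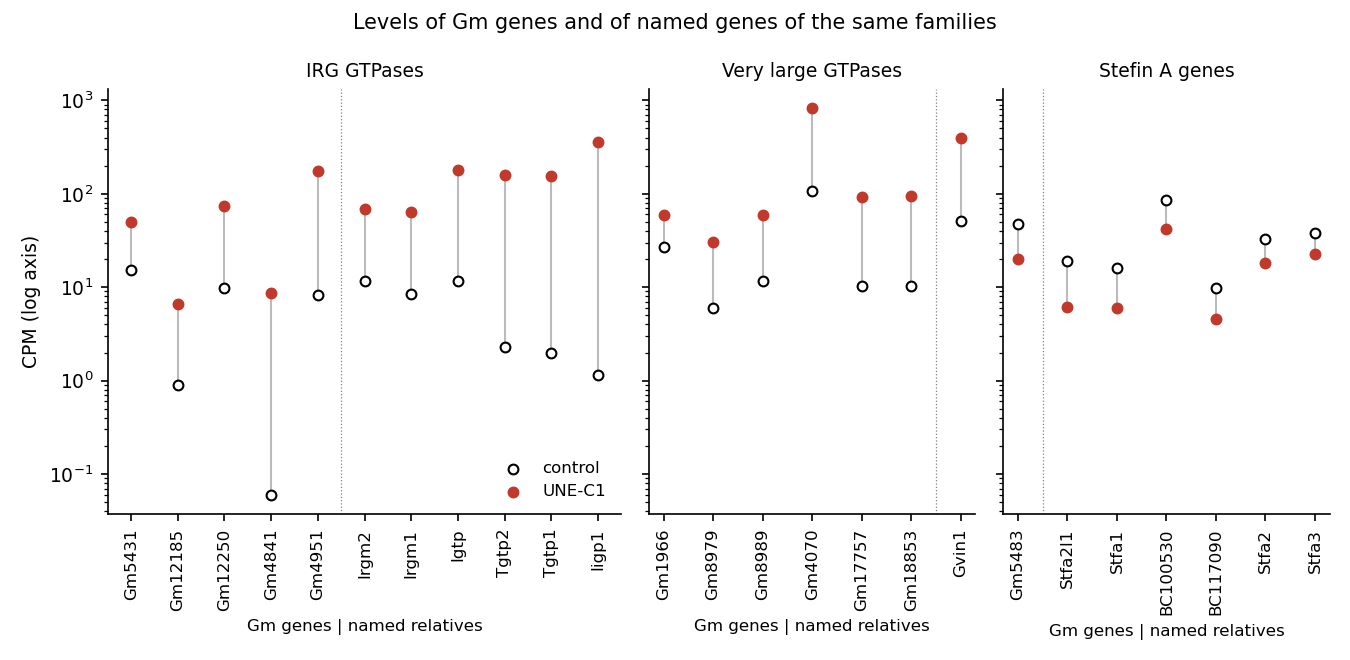
Levels (CPM, log axis) of Gm genes, left of each dotted line, and of named genes of the same family, right of it, with open circles for the control and filled circles for the UNE-C1 library; Gm18853 is drawn with the very large GTPases, in whose cluster it lies. Filled circles lie above open ones for every IRG gene and every very large GTPase drawn, and below them for Gm5483 and the 6 named stefin A genes.

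Other families listed for Gm symbols gave little. Of 7 Gm symbols listed for the MHC class I-like genes, which present peptides or related ligands, 4 were in the files and none passed the floor, with 0 to 2 reads each. Of 9 named genes of that family, 7 passed the floor and 6 were higher. Gm14548, of the paired immunoglobulin-like receptor family that tunes myeloid activation, had 179 and 148 reads (log2 fold change -0.03), and its near-identical relative Pira2, at 97.8% of 2120 bases, had 635 and 647. Of 12 named paired receptor and signal-regulatory genes in the files, 11 passed the floor, with a median log2 fold change of 0.42 and 2 higher, Sirpb1a (43 and 150 reads) and Sirpb1b (231 and 776). For the interferon-activated IFI200 and Ifit families, 6 of 7 and 5 of 6 named genes past the floor were higher, and the Gm symbols listed for them were not analysed here.

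Among the other coding or formerly coding Gm genes that were higher, several had a named relative beside them. Gm14085, now named Slc28a2b, belongs to the concentrative nucleoside transporters, which carry nucleosides into the cell. It had 3 and 62 reads, a ratio of 24.4 (7.96 to 121). Slc28a2, on the same strand at a distance of 23789 bases, had 30 and 702 reads. The transcripts matched at 95.9% of 3750 bases, and Gm14085 held 9.09% of the pair's reads without and 8.12% with UNE-C1. On the log2(CPM + 1) scale the pair stood 1.99 apart, the widest gap of any pair, but the plain ratio of Slc28a2, at 27.6 (19.2 to 41.2), lay within the interval of Gm14085.

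Gm6904 (chr14:59238767-59260189), annotated as the pseudogene Phf11, lies among the Phf11 genes, which encode PHD finger proteins. It had 5 and 114 reads, a ratio of 26.9 (11.2 to 84.4). Its neighbour Phf11a had 155 and 2226 reads. Phf11b had 1255 and 11071, Phf11c had 110 and 666, and Phf11d had 242 and 4289, so that all 4 named genes of the group were higher as well, at 7.14-fold to 20.9-fold. The pseudogene had the fewest reads of the 5 in both libraries. Its transcripts matched Phf11a at 96.6% of 589 aligned bases and Phf11b at 96.2% of 625. At that likeness, how the counting divided reads between them cannot be told apart from their own levels.

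Gm15056, also listed as the beta-defensin gene Defb52, had 13 and 162 reads and was 14.7-fold higher (8.36 to 28.2). Beta-defensins are small antimicrobial peptides. It lies at chr8:20900606-20902456. The only counted gene that overlapped it had 0 reads, and the nearest genes past the floor, over 400 kb away, differed by less than 2-fold (2610005L07Rik with 72 and 65 reads, 6820431F20Rik with 215 and 246). The last higher coding gene, Gm21188, had 422 and 760 reads, a 2.12-fold difference (1.88 to 2.40).

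Of the long non-coding Gm genes, 9 were higher. Gm10872 is Mirt2 (chr15:76266787-76269839), a non-coding RNA known to be induced by lipopolysaccharide in macrophages. It had 71 and 424 reads, a 7.04-fold difference (5.47 to 9.19). Its nearest genes past the floor were Grina, with 3313 and 20237 reads, and Parp10, an interferon-responsive ADP-ribosyltransferase, with 236 and 1786. On the log2 scale the differences were 2.84 and 3.07 for these neighbours, beside 2.56 for Mirt2.

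Gm14005 is Morrbid (chr2:128298663-128429351), a non-coding RNA known to lengthen the life of short-lived myeloid cells by repressing the adjacent pro-apoptotic gene Bcl2l11, which encodes Bim. It had 150 and 748 reads, a 5.88-fold difference (4.93 to 7.06). Bcl2l11 had 1625 and 2036 reads, a 1.48-fold difference (1.38 to 1.58). Thus the non-coding RNA and its neighbour were both above the control, and the RNA by the larger ratio.

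Gm11110 (chr17:57092023-57105942) had 9 and 108 reads and was 14.2-fold higher (7.19 to 31.8). It lies on the strand opposite to Tnfsf9, which encodes the ligand of the costimulatory receptor 4-1BB and had 2 and 17 reads. Cd70, another costimulatory ligand gene, lies 40055 bases away and had 8 and 72 reads. The non-coding RNA thus had more reads than either ligand gene in the UNE-C1 library.

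Antisense non-coding genes moved with the gene on the opposite strand in some places. Gm16712 (chr17:55954771-55959401), opposite the cytokine subunit gene Ebi3, had 666 and 1484 reads, and Ebi3 had 767 and 1667, which are 2.63-fold (2.40 to 2.88) and 2.56-fold (2.35 to 2.80) differences. Gm15133, opposite Trim12a of the antiviral TRIM family, had 10 and 54 reads, and Trim12a had 288 and 658. Whether the counting used strand is not stated, so reads from a gene and its antisense partner cannot be told apart. The other higher non-coding Gm genes were Gm9895, Gm28042, Gm19705 and Gm2694, with 25 to 64 control reads, 71 to 145 reads with UNE-C1 and log2 fold changes from 1.21 to 1.33.

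**Figure D3:**
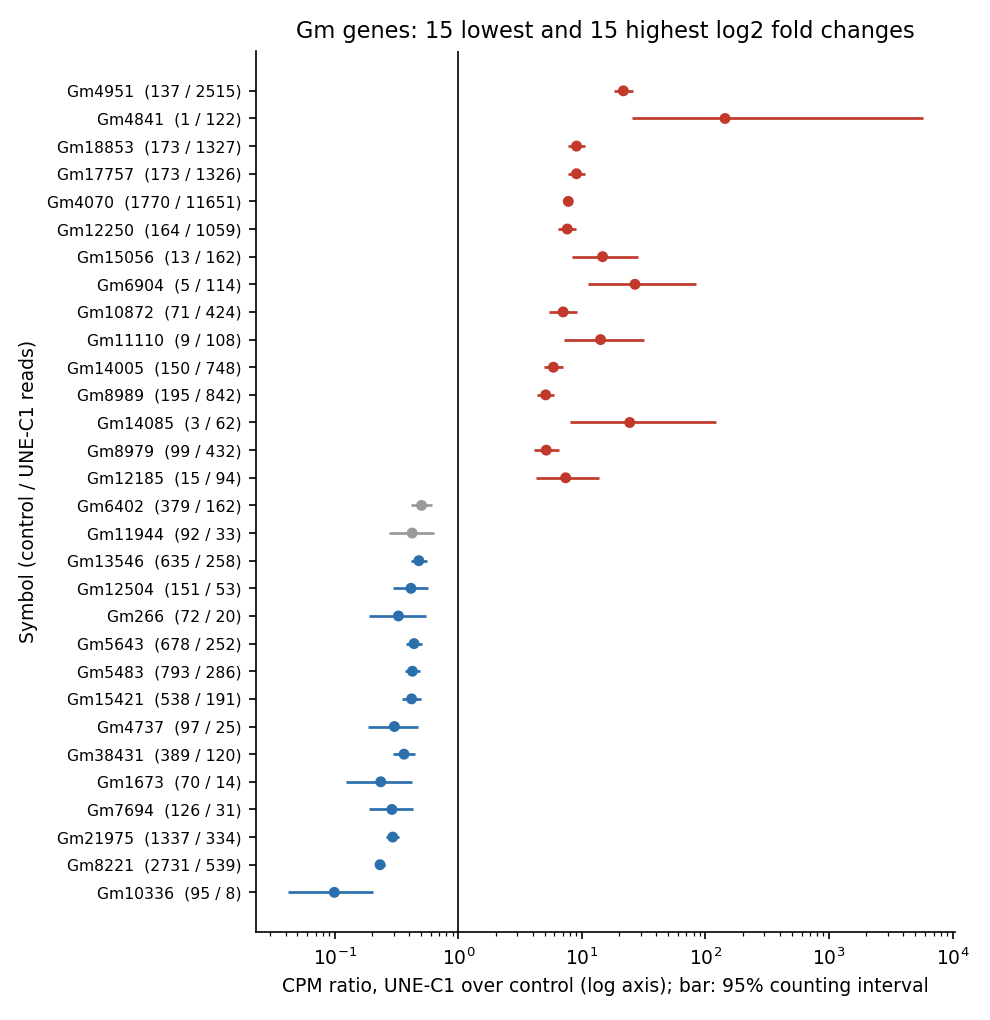
CPM ratio of the UNE-C1 to the control library (log axis) for the 15 highest and 15 lowest Gm genes by log2 fold change, with reads in control and UNE-C1 in brackets and bars for the 95% counting interval; red genes were at least 2-fold higher, blue at least 2-fold lower and grey neither. The widest bars belong to Gm4841 and Gm14085, which had 1 and 3 reads in the control, and the narrowest among the higher genes to Gm4070.

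A ubiquitin pseudogene had more reads than its parent. Gm1821, now named Ubb-ps (chr14:46084027-46084957), was the most abundant Gm gene in both libraries, with 16925 and 30304 reads, and was 2.11-fold higher (2.07 to 2.15). With total counts its log2 fold change was 0.74 in place of 1.08, and it was not called. Its parent Ubb, a polyubiquitin gene that supplies the cell with ubiquitin, had 2 and 3 reads. The transcripts matched at 98.5% of 685 bases. Whether the reads on Gm1821 came from the pseudogene or from Ubb cannot be told apart from counts.

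The same arrangement was seen for other parents. Gm5424 (chr10:62071022-62072571) had 3272 and 4769 reads, a 1.72-fold difference (1.64 to 1.80), while its parent Ass1, which makes argininosuccinate for arginine synthesis, had 9 and 17. Gm7367 had 509 and 314 reads beside 0 and 0 for Ubald2, which allows up to 3 reads in each library. Gm12669 had 150 and 119 beside 0 and 0 for Glrx3, Gm5801 had 727 and 811 beside 3 and 4 for the ubiquitin-conjugating enzyme gene Ube2j2, and Gm10094 had 878 and 906 beside 2 and 1 for Sap18. In each of these pairs the Gm symbol held over 99% of the reads in both libraries.

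In other pairs the reads were divided almost evenly. Gm8221 (chr15:77618968-77627398) had 2731 and 539 reads, 4.30-fold lower (3.91 to 4.72), and Apol7c had 2693 and 550, 4.15-fold lower (3.79 to 4.56). The transcripts matched at 97.0% of 1110 bases, and 85633 bases separate the genes. Gm6644 had 500 and 345 reads beside 495 and 344 for the aldose reductase gene Akr1b3. Gm12338 had 3516 and 2029 beside 2890 and 1744 for the cytochrome oxidase subunit gene Cox7c. Between the members of each of these pairs the fold differed by less than 0.07 on the log2 scale.

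Over all Gm genes with a GENCODE transcript (121), 46 had a counted gene elsewhere whose transcript matched at least 80% of their length at 95% identity or more, and 29 of these were pseudogenes. The copy passed the floor in 36 of the pairs. Of these, Gm8979 and Gm8989, Gm17757 and Gm18853, and Gm4724 and Gm14308 are copies of each other and counted from both sides. All of them lay within 0.5 of their copy on the log2 fold change scale. The log2 fold changes of Gm gene and copy lay within 0.5 of each other in 27 and further apart in 9, with a median gap of 0.17, and had the same sign in 31. For the glycolytic gene Gapdh (1070 and 2912 reads), the copy Gm12070 at 99.9% identity was 2.97-fold higher (2.61 to 3.38), beside 3.21-fold (2.99 to 3.45) for Gapdh, and Gm5069 had 87 and 161 reads, with a log2 fold change of 0.99 just under the threshold. Gm9199, a higher pseudogene without a GENCODE transcript to compare, had 30 and 75 reads and overlaps the leukotriene receptor gene Cysltr2, with 12 and 43. Gm6548, a copy of the elongation factor gene Eef1a1 at 96.7% identity, had 1066 and 788 reads (log2 fold change -0.19), whereas Eef1a1 had 18608 and 6007 (-1.39), a gap of 1.20. Gm6548 also overlaps Eif2ak2 on the same strand, which had 382 and 975 reads (1.55). The part of the overlapping gene in this gap was not tested.

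**Figure D4:**
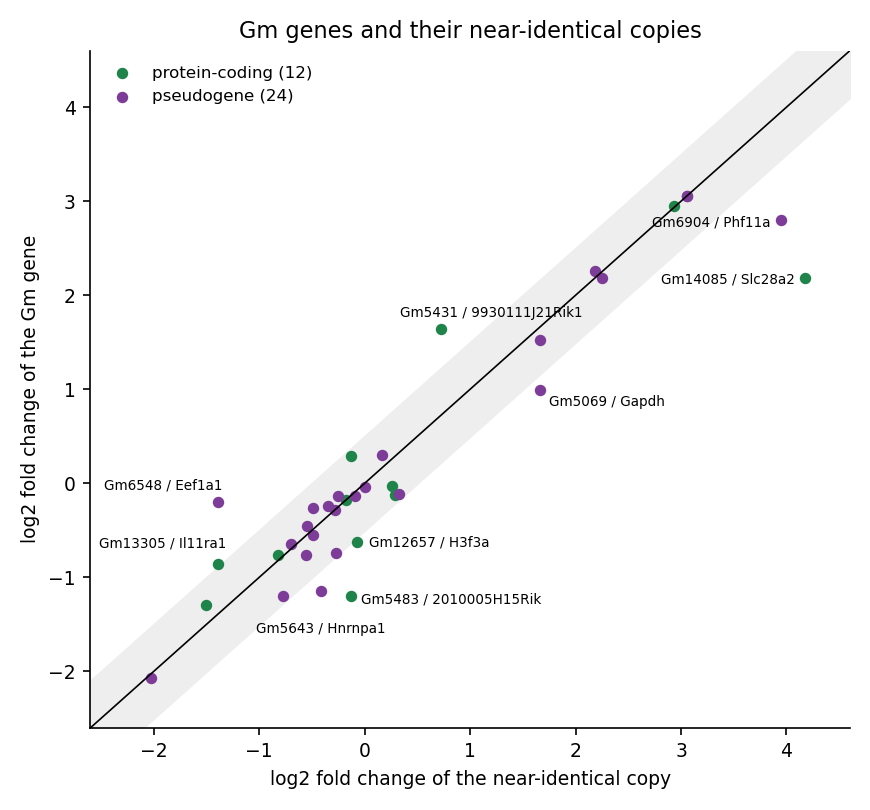
Log2 fold change of each of 36 Gm genes (vertical axis) against that of the gene with a near-identical transcript (horizontal axis), both UNE-C1 over control on the log2(CPM + 1) scale, with protein-coding Gm genes in green and pseudogenes in purple; the line marks equal values and the grey band a gap of up to 0.5. Inside the band lie 27 points, and the 9 outside it are named, with Gm14085 and Slc28a2 the farthest apart at 1.99. Gm genes that are copies of each other have a point each, all inside the band.

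The remaining abundant Gm genes were mostly copies of ribosomal or mitochondrial genes, and none of those named here was called. Gm6654 had 8598 and 5334 reads beside 10534 and 6119 for Rps26 (log2 fold changes -0.45 and -0.54). Gm6251, now Rpl32l, had 1866 and 929 beside 12756 and 6104 for Rpl32 (-0.76 and -0.82). Gm10012, a second Cox7c copy, had 2383 and 1677 (-0.27). Gm5148 (chr3:37714190-37724360), a coding gene without a near-identical counted copy, had 9168 and 4221 reads and was 1.84-fold lower (1.78 to 1.91), short of the threshold on the log2(CPM + 1) scale, though past it with total counts (-1.22).

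The 13 lower Gm genes were 6 coding genes, 3 long non-coding genes and 4 pseudogenes. Gm10336 (chr13:12182717-12186488), a non-coding gene that overlaps the methionine synthase gene Mtr, had 95 and 8 reads and was 10.1-fold lower (4.91 to 24.0). Mtr had 251 and 98 reads and was also at least 2-fold lower. Gm21975 is the Evi2 locus (chr11:79513385-79530609), which joins the genes Evi2a and Evi2b. It had 1337 and 334 reads and was 3.39-fold lower (3.01 to 3.84). Evi2b had 1331 and 328 reads and Evi2a 1208 and 874, so that the joint symbol had almost the reads of Evi2b. The values of Gm21975 and Evi2b, which overlap on the same strand, cannot be taken as independent.

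Gm38431 (chr9:21067514-21092008), a non-coding symbol on the same strand as Fdx1l and Raver1, had 389 and 120 reads. Fdx1l, a mitochondrial ferredoxin gene, had 369 and 112, and Raver1 had 261 and 204. The symbol thus had reads close to those of Fdx1l in both libraries, with log2 fold changes of -1.36 and -1.37. The values of Gm38431 and the overlapping Fdx1l cannot be taken as independent. Gm13546 (chr2:58163974-58177063), opposite Cytip, which controls dendritic cell adhesion, had 635 and 258 reads and was 2.09-fold lower (1.80 to 2.42). Cytip had 3849 and 3657 reads (log2 fold change 0.16), so here the antisense gene and its partner differed.

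Besides Gm8221 and Gm5483, the lower Gm genes with a near-identical copy were Gm4737, Gm15421 and Gm5643. Gm4737, a copy of Ahcy, which breaks down S-adenosylhomocysteine, had 97 and 25 reads beside 148 and 35 for Ahcy. Gm15421 had 538 and 191 beside 1414 and 693 for the ribosomal protein gene Rpl22l1. Gm5643 had 678 and 252 beside 262 and 163 for the splicing factor gene Hnrnpa1. The last 2 parents had log2 fold changes of -0.78 and -0.42 and were not called, and Ahcy had -1.51. Gm12504 (Ptma-ps2) had 151 and 53 reads, Gm7694 had 126 and 31, Gm1673 had 70 and 14, and Gm266 had 72 and 20. Their log2 fold changes ran from -1.42 for Gm7694 to -1.08 for Gm12504. The genes nearest to Gm7694 and Gm1673 on the same strand, Nos1ap (191 and 69 reads) and Nat8l (75 and 10), were also at least 2-fold lower.

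Stefin A proteins inhibit cysteine proteases such as cathepsins, and their genes are expanded in the mouse. Gm5483, now Cstdc4 (chr16:36184212-36188111), had 793 and 286 reads and was 2.35-fold lower (2.05 to 2.70). Gm5416 had 8 and 0 reads and did not pass the floor. Of 7 named stefin A genes, 6 passed the floor, with log2 fold changes from -1.48 for Stfa2l1 (319 and 88 reads) to -0.72 for Stfa3 (641 and 325), a median of -0.98 and 2 called lower. Csta1 had 5 and 9 reads. The gene with the transcript most like that of Gm5483, 2010005H15Rik at 95.2% of 399 bases, had 279 and 215 reads (-0.13).

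Markers of neutrophils, another cell that GM-CSF cultures of bone marrow hold, moved with the stefin genes. Of 9 neutrophil markers listed, 8 were in the files, and all 8 were at least 2-fold lower, none was at 0, and their summed level was 7167 CPM without and 2951 CPM with UNE-C1. S100a8 had 50582 and 18226 reads and Retnlg had 1699 and 110. Among markers of mast cells, basophils and eosinophils, 2 of 4 past the floor were lower (Siglecf with 330 and 51 reads, Cpa3 with 353 and 127), and their sum was 1076 CPM without and 692 CPM with UNE-C1. Of the lymphoid markers, Klrd1 (76 and 9 reads) and the B cell gene Cd22 (302 and 89) passed the floor, and both were lower. The part of any of these cells in the stefin result was not tested.

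A group of 10 Gm genes encodes or resembles KRAB zinc finger proteins, a large family of repressors that silence transposable elements; the group was put together after its values were seen. Their log2 fold changes ran from -0.38 for Gm14431 to 0.50 for Gm14325, and none was called, where 9.31% of all genes were higher and 9.42% lower. Gm13139, now Zfp991, was the most abundant, with 1371 and 1357 reads. The others had 54 to 321 reads in the control. Several are near-identical to one another, such as Gm4724 and Gm14308, which matched over 1628 bases without a mismatch and had 57 and 43 against 76 and 82 reads.

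Position in the genome was compared over the 130 Gm genes placed by RefSeq. A counted gene past the floor overlapped 52 of them, on the same strand for 15 and on the opposite strand for 31. Some, such as Gm21975, are in both of these counts, and for some the strand was not known. The next counts leave out overlapping genes. Over all genes past the floor, 9.31% were at least 2-fold higher and 9.42% lower. The nearest counted gene past the floor was at least 2-fold higher for 10 of the 27 higher Gm genes and lower for none. It was lower for 5 of the 13 lower Gm genes and higher for none. Of the 90 Gm genes that were neither, 7 had a higher and 6 a lower nearest gene. The nearest gene can itself be a Gm gene, as in the Gvin1 cluster, and can be counted more than once. Gm20604 shared its 141 and 117 reads exactly with the overlapping apoptosis gene Moap1, whose transcript matched without a mismatch over 1166 bases, so that these values are not independent.

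The promoters of 76 Gm genes were in the RefSeq table (GRCm38.p6), as windows of 300 bases from 250 before to 50 after the annotated start. Each was searched on both strands, without mismatches, for the core of the interferon-stimulated response element (GAAA, any 2 bases, then GAAA), the site of interferon regulatory and STAT factors. It was found in 4 of 14 higher Gm genes (28.6%), 0 of 8 lower and 2 of 54 that were neither (3.70%), and in 1079 of all 27025 genes of the table (3.99%). The gamma-activated site TTCNNNGAA was in 3 of 14, 1 of 8 and 3 of 54, and in 9.55% of all genes. In the Gm promoters no match of one motif overlapped a match of the other. A match is a description of letters and not of binding, and the Gm1966 match falls in a run of T and C.
In Gm14085 the response element core lay after the start. The 3 higher Gm genes with a core before the start are shown with 250 bases up to the start, on the gene's strand, with the core in capitals (as its reverse complement in Gm12250 and Gm1966). Gm12250 (chr11:58183593-58183842, plus strand) held it 2 times, at 91 to 82 and 46 to 37 bases before the start. Gm12185 (chr11:48927183-48927432, minus strand) held it at 75 to 66, and Gm1966 (chr7:106644646-106644895, minus strand) at 163 to 154.
Gm12250: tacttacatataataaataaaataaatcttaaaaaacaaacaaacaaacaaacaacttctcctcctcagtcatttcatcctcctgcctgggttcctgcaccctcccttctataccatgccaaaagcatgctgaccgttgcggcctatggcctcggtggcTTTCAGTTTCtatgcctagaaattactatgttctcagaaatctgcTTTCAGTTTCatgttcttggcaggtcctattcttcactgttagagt
Gm12185: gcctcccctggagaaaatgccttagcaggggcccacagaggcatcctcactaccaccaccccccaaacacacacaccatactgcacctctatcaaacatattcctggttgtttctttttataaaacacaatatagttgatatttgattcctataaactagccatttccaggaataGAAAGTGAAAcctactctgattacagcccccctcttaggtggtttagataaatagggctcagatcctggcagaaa
Gm1966: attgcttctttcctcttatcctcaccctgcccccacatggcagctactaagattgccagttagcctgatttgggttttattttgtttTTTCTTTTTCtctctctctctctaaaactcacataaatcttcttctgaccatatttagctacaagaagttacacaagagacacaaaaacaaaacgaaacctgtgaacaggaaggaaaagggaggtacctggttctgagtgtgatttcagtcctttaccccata

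The floor itself divided genes of like counts. Just inside it lay Gm20257 (51 and 39 reads), Gm11423 (52 and 26) and Gm15133 (10 and 54). Just outside lay Gm15471 (49 and 22), Gm5766 (49 and 11) and Gm20594 (48 and 43).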

How the data were processed

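RNA was measured in 1 control and 1 UNE-C1 library of mouse bone marrow-derived dendritic cells. Each deposited file gives raw counts, whole numbers of reads for every gene symbol, as judged from the values. Bowtie2, edgeR and the build mm10 are named per the submitters' processing notes. How reads were counted (tool, annotation, strand, multiply mapped reads) is not stated.

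Each file held 23282 entries, which gave 23238 symbols after reads of repeated symbols were summed. CPM used TMM library sizes (edgeR 4.0.16, R 4.3.3), with a pseudocount of 1 for log2 values. Intervals came from scipy 1.17.1. Symbols, older names, classes and positions came from RefSeq (GRCm38.p6), which matched 130 of the 131 genes, 24 of them by an older name. Transcripts from GENCODE M21, which held 121, were compared with BLAST 2.17.0 megablast. The identity and length thresholds for a near-identical copy were chosen after seeing the data.

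The text names Gm genes of the listed families past the floor, the 15 highest and 15 lowest, the 10 most abundant in each library, 3 on either side of the floor, and their neighbours and copies. The members and lists were chosen with earlier results of these data known. The remaining Gm genes named, chiefly copies and zinc finger genes, were chosen after their values were seen. The calculations were tested on simulated data. Alternatives were total counts, DESeq2 1.42.0 size factors, other pseudocounts and floors, and the leaving out of Rn45s.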

Additional observations from a re-analysis of the deposited data

How the results depend on the processing

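With 1 library per group, neither a left-out replicate nor a test was possible. No paired analysis was possible because each group holds 1 library. The counts of 27 higher and 13 lower Gm genes depended on the scaling, the pseudocount and the floor. With total counts in place of TMM, 21 were higher and 24 lower (6.28% and 16.2% of all genes), the median was -0.35 (all genes -0.33), and the higher share of the called genes was 46.7% instead of 67.5%. With a pseudocount of 5, 18 were higher and 5 lower (6.92% and 4.62% of all genes). A floor of 200 reads left 59 Gm genes, 15 higher and 7 lower (25.4% and 11.9%, all genes 10.1% and 7.57%). A floor of 20 reads gave 189, with 29 higher and 18 lower (15.3% and 9.52%, all genes 9.12% and 9.67%). With no floor, 31 of 483 Gm symbols with a read were higher and 19 lower. These were 6.42% and 3.93%, beside 6.82% and 7.21% of all genes, so the larger share of higher Gm genes was not seen without a floor. Leaving out genes with a near-identical copy, an alternative added after seeing the data, left 17 higher and 8 lower of 85 (20.0% and 9.41%). The shares of all genes, with copies kept, were 9.31% and 9.42%. Of the listed families, 10 or 11 Gm genes were higher and 1 lower under each scaling and pseudocount tried. For the 42 named Gm genes with a value under each of 5 scaling and pseudocount settings, 209 of 210 log2 values kept their sign (Gm13139 turned to -0.12 with total counts), 12 of 160 called values lost the call and 5 uncalled values gained it, among them Gm5148, Gm6251 and Gm6402 with total counts. Values resting on under 10 reads in 1 library, such as Gm4841, Gm14085 and Gm6904, have wide counting intervals.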

Other observations

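Of the 352 Gm symbols with 1 to 49 reads at most, 4 passed the 2-fold threshold upwards and 6 downwards on the log2(CPM + 1) scale, with a median of -0.05. Gm5086 had 40 control reads and 1 read with UNE-C1. Gm9958 had 25 and 2 reads, Gm8369 had 7 and 37, and Gm4961 had 1 and 19. These symbols belong to no comparison above, and their ratios rest on few reads.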
